A study of Mus musculus with 6 samples.

Results

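The cytosolic ribosomal protein genes encode the proteins that, with ribosomal RNA, build the large and the small subunit of the ribosome. They were chosen by symbol alone, as every gene whose name follows the Rpl or Rps pattern plus Rplp0, Rplp1, Rplp2 and Rpsa, without pseudogene rows ending in -ps and without the S6 kinase genes. This gave 84 of the 24513 genes in the count tables, 51 of the large and 33 of the small subunit. RNA had been sequenced from hypothalamus, which governs appetite, temperature and the pituitary, of 3 wild-type (WT) and 3 NS-DADm mice. All 6 animals were C57BL/6 mice, 3 to 4 months old, and each library was made from 1 animal, with no treatment given in the labels. The labels do not spell out NS-DADm; from general knowledge of the line, these mice (the mutants below) are mutated in all tissues in the deacetylase-activating domain of the nuclear receptor corepressors NCOR1 and SMRT, so that these no longer activate the histone deacetylase HDAC3. The comparison asks how hypothalamic transcripts differ when this domain is mutated.

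Each ribosome holds 1 copy of nearly every ribosomal protein, so cells make these proteins in matched amounts. Their mRNAs are among the most abundant in most cells, neurons and glia included. Many of them begin with a C and a stretch of pyrimidines at the 5′ end (the terminal oligopyrimidine, or TOP, motif), through which the growth-sensing kinase mTOR and the RNA-binding protein LARP1 control their translation. Their cost to the cell makes them a common readout of growth and nutrient state.

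The annotated start sites show this shared feature and its exceptions. RefSeq start-site sequences of build GRCm38.p6, the mm10 genome, were at hand for 63 of the 84 genes. The following 12 windows of 30 bases run from 15 bases before the annotated start to 15 bases from it onward, 5′ to 3′, with the longest pyrimidine run that touches the 5 bases either side of the start in capitals. Where a gene has several annotated starts, the one printed is the most upstream. For Rpl22 the printed start lies well before the gene in the GENCODE M21 annotation, which begins at 152325742. Its other annotated start, close to that position, has a run of 1 base. They belong to members at either end of the fitted changes, stalk and abundant proteins, members with almost no counts, and paralogs.
Rpl38, chr11:114668565-114668594, plus strand: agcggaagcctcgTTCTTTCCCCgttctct
Rps21, chr2:180257364-180257393, plus strand: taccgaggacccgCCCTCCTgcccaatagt
Rpl22l1, chr3:28805493-28805522, plus strand: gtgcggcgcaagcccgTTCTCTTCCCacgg
Rpl9, chr5:65391417-65391446, minus strand: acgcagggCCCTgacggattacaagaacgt
Rplp0, chr5:115559452-115559481, plus strand: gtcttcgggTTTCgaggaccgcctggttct
Rplp2, chr7:141447636-141447665, plus strand: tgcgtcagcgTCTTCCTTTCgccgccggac
Rps6, chr4:86857353-86857382, minus strand: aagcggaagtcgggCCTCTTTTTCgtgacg
Rpl26, chr11:68901551-68901580, plus strand: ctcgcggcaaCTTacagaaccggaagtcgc
Rps27, chr3:90213634-90213663, minus strand: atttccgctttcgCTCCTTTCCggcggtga
Rps27l, chr9:66946071-66946100, plus strand: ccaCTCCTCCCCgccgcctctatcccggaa
Rpl22, chr4:152324421-152324450, plus strand: cgctgcttctggaatgTTCCagctcccact
Rpl3l, chr17:24727811-24727840, plus strand: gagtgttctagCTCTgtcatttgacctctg
Rpl38, Rplp2, Rps6, Rps27 and Rpl22l1 have a long pyrimidine run across or beside the annotated start. Short runs are seen in Rpl9, Rplp0 and Rpl26 as well as in Rpl3l and Rpl22. A C followed by at least 4 bases that are each C or T, with the C no more than 5 bases from the annotated start on the sense strand, was found in 29 of the 63 members (46.0%), against 21.2% of the 27025 genes in the same table. Annotated starts can lie some bases from the true ones, so a missing match says only that these letters are not in this window.

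Over the full 300 bases, from 250 before the start to 50 after it, other short sequences were also more frequent in the members. CCGGAAG, the core bound by ETS factors, was found on either strand in 41.3% of the 63 members and 9.93% of all genes. TCTCGCGA occurred in 17.5% of members and 1.13% of all genes, and ATGGCGG, part of the YY1 motif, in 17.5% and 4.69%. CCCGCC, found in GC boxes, occurred in 61.9% of members and 37.9% of all genes. None of these motifs contains another of the set. These are matches of letters, described without a test, and binding was not measured here. In the GENCODE M21 annotation, 83 of the 84 genes were found, on 18 autosomes and the X chromosome. Chromosome 7 held 14 of them, and the X chromosome held 4. Rps4l was not matched there, and the RefSeq table lists it as a transcribed pseudogene, so it is a ribosomal protein gene by its symbol only.

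The libraries held 24173076 to 27606309 reads on genes, and 18766 to 18916 genes had at least 1 read. Hypothalamic markers were present in each library, with the orexin gene Hcrt at 72.3 to 124 CPM (reads of a gene scaled to a common library total) and the homeobox gene Nkx2-1 at 25.2 to 31.3 CPM. These markers were chosen after the data had been seen. Over a list of 10 hypothalamus markers the median log2 fold change of NS-DADm over WT was 0.13, with 8 fitted above 0 and 2 below. Of the 10, 1 was called higher, against 0.0818% of all genes. Chi-square per degree of freedom between 2 animals of one group was 3.30 to 9.98, where 1 is counting noise, so none was a duplicate of another. Between the groups, 104 of 15894 tested genes passed the threshold (edgeR quasi-likelihood test, Benjamini-Hochberg adjusted p under 0.05). The summed level of 15 thalamus markers was 1312 to 1781 CPM in the WT animals and 976 to 1070 CPM in the mutants. Of these 15, 6 were called lower, against 0.573% of all genes. The list was already known from earlier results of these data to be lower in the mutants, so this difference is not independent evidence. The sum of 10 neuron markers was 6120 to 6355 CPM in the WT animals and 5848 to 5969 CPM in the mutants, without overlap. Microglia sums were 313 to 330 CPM in WT and 294 to 311 CPM in mutant animals, just without overlap. Astrocyte (3746 to 4043 and 3733 to 3875 CPM) and endothelial sums (195 to 242 and 187 to 200 CPM) overlapped. Of 10 each, 4 neuron, 4 microglia, 5 astrocyte and 2 endothelial markers were lower at an unadjusted p under 0.05 (edgeR). This share was 6.46% over all genes. Blood cell markers summed to at most 2.62 CPM. Mature oligodendrocyte markers summed to 5647 to 6096 CPM in the WT animals and 4944 to 5705 CPM in the mutants, with a median log2 fold change of -0.20. Of 14, 1 was called lower, against 0.573% of all genes. At an unadjusted p under 0.05 (edgeR), 11 were lower, against 6.46% of all genes. Choroid plexus and ependymal markers summed to 73.2 to 81.1 CPM in the WT animals and 78.3 to 87.4 CPM in the mutants. Of 9 tested, 8 were fitted above 0, where 48.4% of all genes were fitted below 0. The summed level of 12 anterior pituitary markers was 83.5 to 157 CPM in the WT animals. It was 263, 2081 and 246 CPM in NS-DADm 1, 2 and 3, so the groups did not overlap. All 9 tested were fitted above 0, with a median log2 fold change of 1.98, and 0 were called. The part of these tissue differences in the values below was not tested, except in a fit with the thalamus markers as a covariate. In whole tissue, fewer cells of a type and less RNA per cell cannot be told apart.

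Ribosomal protein transcripts as a whole were at closely similar levels in WT and NS-DADm hypothalamus. Together they took 1.30, 1.29 and 1.31% of the reads on genes in the WT animals, in the order of replicates 1 to 3, and 1.30, 1.35 and 1.28% in the mutants. The groups overlapped, and NS-DADm mice held both the highest and the lowest share. The means were 1.30 ± 0.0098% in the WT animals and 1.31 ± 0.034% in the mutants (SD, n = 3 each). Large subunit genes took 0.792 ± 0.0053% and 0.797 ± 0.021%, and small subunit genes 0.507 ± 0.0055% and 0.511 ± 0.014%. The ratio of large to small subunit reads stayed between 1.54 and 1.57 in all 6 libraries, with means of 1.56 ± 0.013 and 1.56 ± 0.017. Relative to each gene's mean over the libraries, the median of the members with at least 10 CPM was highest in NS-DADm 2 (log2 0.037), and next highest in WT 3 (0.023). It was lowest in NS-DADm 3 (-0.030) and NS-DADm 1 (-0.022). Large and small subunit genes had medians of 0.039 and 0.035 in NS-DADm 2 and -0.027 and -0.034 in NS-DADm 3. In NS-DADm 1 they differed more, with -0.032 and -0.010, and in WT 2 they were 0.00089 and -0.011. NS-DADm 2 was also the library with the highest sum of pituitary markers, and the share of the members in the other NS-DADm libraries lay at 1.30 and 1.28%.

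**Figure D1:**
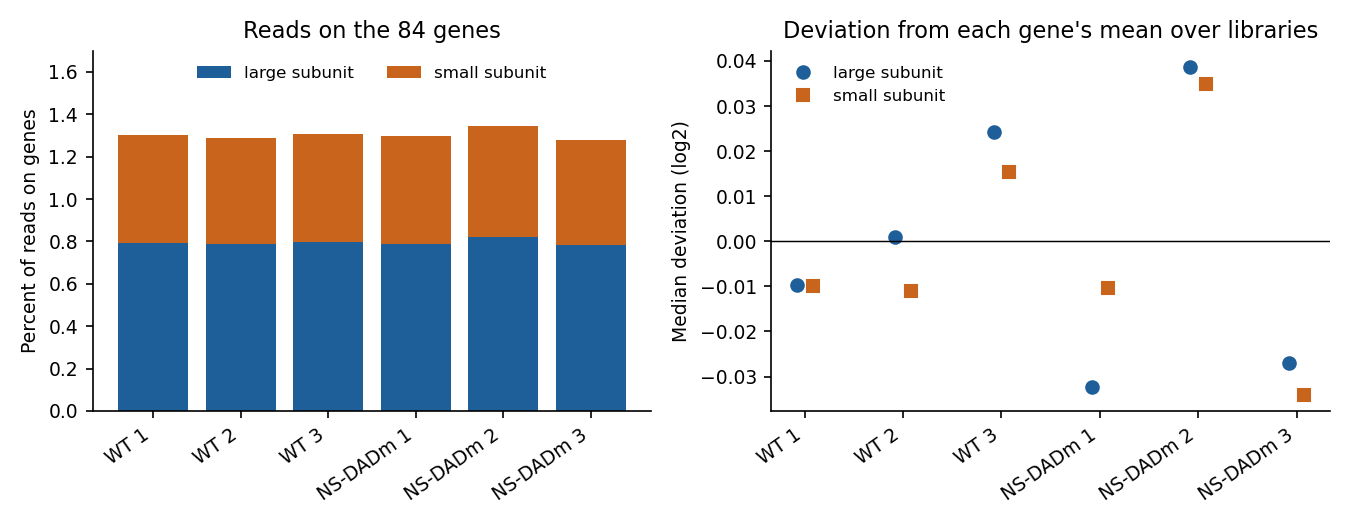
Left, percent of the reads on genes that fell on large (lower part of each bar) and small subunit genes (upper part) in each of the 6 libraries, on an axis from 0. Right, median over members with at least 10 CPM of the log2 deviation from each gene's mean over the libraries: both subunits are highest in NS-DADm 2, and the WT libraries lie between the NS-DADm libraries.

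Gene by gene, no ribosomal protein transcript passed the threshold. Of the 84 genes, 81 passed the count filter and were tested, 48 of the large and 33 of the small subunit, and 0 of them were called, against 0.654% of all genes tested (0.0818% higher and 0.573% lower). Without an adjustment 2 members (2.47%) had a p under 0.05 in the edgeR test, both lower in NS-DADm mice, against 10.9% of all genes (6.46% lower). This count moved with the setting: it was 8 (9.88%, against 14.6% of all genes) without WT 1 and 5 (6.17%, against 8.43%) without NS-DADm 2. It was 3 (3.70%, against 11.2%) without WT 2. Without NS-DADm 1 or NS-DADm 3 it was 1 (1.23%, against 9.64% and 6.85%). It was 6 (7.41%, against 11.1%) with library totals. DESeq2 and limma voom also called 0 members. The 3 libraries of one group lay to one side of the other group's in 7 members (8.64%), 4 higher and 3 lower, against 16.8% of all genes (7.86% higher and 8.93% lower). Fitted changes fell on both sides of 0, with 37 members above and 44 below it, and 48.4% of all genes below. The median log2 fold change was -0.0048 over the members and 0.0040 over all genes. It was -0.0096 for the large and 0.011 for the small subunit.

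The precision was high for most members, and 74 of the 84 genes had at least 1000 reads in every library. Among the 76 members with a mean of at least 10 CPM, the standard error (SE) of the log2 fold change was 0.043 to 0.087, with a median of 0.052. Their fitted log2 fold changes ran from -0.21 to 0.13, and 69 of them were within 0.1 of 0. The 95% interval of the difference lay inside a 1.2-fold change in either direction for 74 of the 76, and inside 1.1-fold for 31. The exceptions at 1.2-fold were Rpl38 and Rpl22l1, described next. Within a group the libraries differed by a median SD of 0.059 (log2) for these members, against 0.075 for all 10530 tested genes with at least 10 CPM. The quartiles of the fitted change were -0.041 and 0.025 in the members and -0.054 and 0.055 in all genes with at least 10 CPM. These sets share only that lower bound and were not matched for level. The members' mean levels had a median of 158 CPM and a lowest value of 22.5 CPM.

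**Figure D2:**
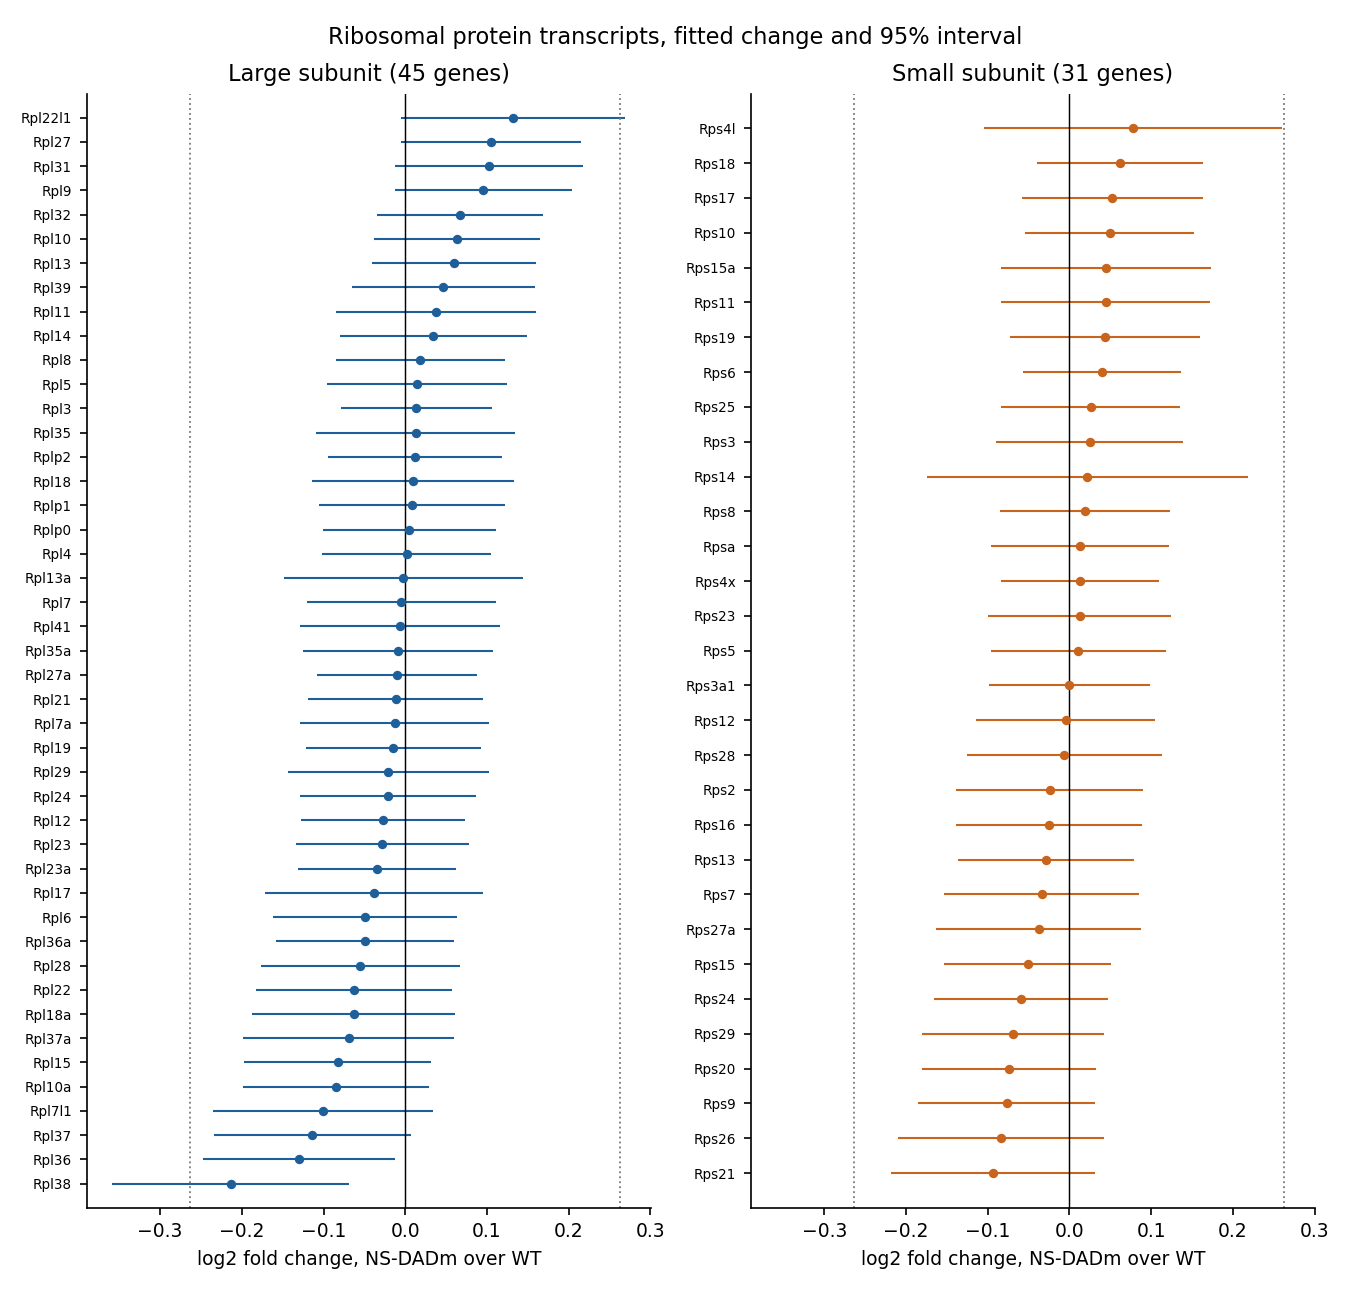
Fitted log2 fold change of NS-DADm over WT with its 95% interval (edgeR) for the 76 ribosomal protein genes with at least 10 CPM, large subunit left and small subunit right; dotted lines mark a 1.2-fold change. Intervals of 74 genes include 0 and those of Rpl38 and Rpl36 do not, before any adjustment for the number of genes.

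Rpl38, a large subunit protein known from mouse mutants with skeletal patterning defects, had the most negative value among the members with at least 10 CPM (chromosome 11, 114668524 to 114672331, plus strand). In the order of replicates 1, 2 and 3, kept for all values below, it stood at 90.1, 81.4 and 90.0 CPM in the WT animals and at 68.2, 81.1 and 76.1 CPM in the mutants. The groups did not overlap, but WT 2 and NS-DADm 2 were almost level. The log2 fold change was -0.21 ± 0.067 SE (edgeR, Benjamini-Hochberg adjusted p = 0.23), with a 95% interval of -0.36 to -0.069. Rpl36, also of the large subunit, measured 64.2, 64.3 and 68.0 CPM in the WT animals and 57.3, 62.5 and 59.7 CPM in the mutants. All NS-DADm values lay below all WT values, and the log2 fold change was -0.13 ± 0.054 SE (edgeR, adjusted p = 0.40).

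The other members at the negative end were also not called. Rpl37, a large subunit protein with a zinc-binding fold, measured 65.6, 59.9 and 60.8 CPM in the WT animals and 56.4, 59.4 and 56.2 CPM in the mutants, without overlap but with WT 2 and NS-DADm 2 almost level. Its log2 fold change was -0.11 ± 0.056 SE (edgeR, adjusted p = 0.50). Rps21, a small subunit protein, measured 133, 118 and 128 CPM in the WT animals and 116, 125 and 113 CPM in the mutants, with overlap. Rpl7l1, a paralog of Rpl7, measured 43.0, 45.8 and 49.3 CPM in the WT animals and 43.4, 43.7 and 41.6 CPM in the mutants, so that WT 1 lay among the NS-DADm values. Log2 fold changes were -0.094 for Rps21 and -0.10 for Rpl7l1, each with an edgeR adjusted p of 0.62. Without WT 1 the value was -0.069 for Rpl37 and -0.051 for Rps21, and without WT 3 it was -0.049 for Rpl7l1.

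At the positive end, Rpl22l1, the paralog of the large subunit protein gene Rpl22, measured 36.1, 35.1 and 35.3 CPM in the WT animals and 40.1, 35.9 and 40.7 CPM in the mutants. NS-DADm 2 lay within the WT range and the other NS-DADm libraries above it. The log2 fold change was 0.13 ± 0.063 SE (edgeR, adjusted p = 0.48), with a 95% interval of -0.0047 to 0.27. Rpl27 measured 78.8, 83.9 and 84.5 CPM in the WT animals and 87.9, 91.7 and 86.1 CPM in the mutants, and Rpl9 measured 224, 246 and 244 CPM in the WT animals and 247, 260 and 256 CPM in the mutants. Neither gene's groups overlapped, by narrow margins. Rpl31, which lies near the exit of the peptide tunnel, measured 90.0, 96.0 and 97.7 CPM in the WT animals and 102, 106 and 96.8 CPM in the mutants, with NS-DADm 3 inside the WT range. Log2 fold changes were 0.10 for Rpl27, 0.096 for Rpl9 and 0.10 for Rpl31 (edgeR, adjusted p = 0.50, 0.53 and 0.53), and that of Rpl9 was 0.058 without WT 1. Rps4l, the transcribed pseudogene, measured 23.4, 20.03 and 22.3 CPM in the WT animals and 21.6, 25.6 and 22.1 CPM in the mutants, and the groups overlapped (log2 0.078 ± 0.084 SE). The remaining members whose groups did not overlap were Rpl32 and Rps18, with log2 fold changes of 0.067 and 0.062; they were chosen after their values were seen.

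**Figure D3:**
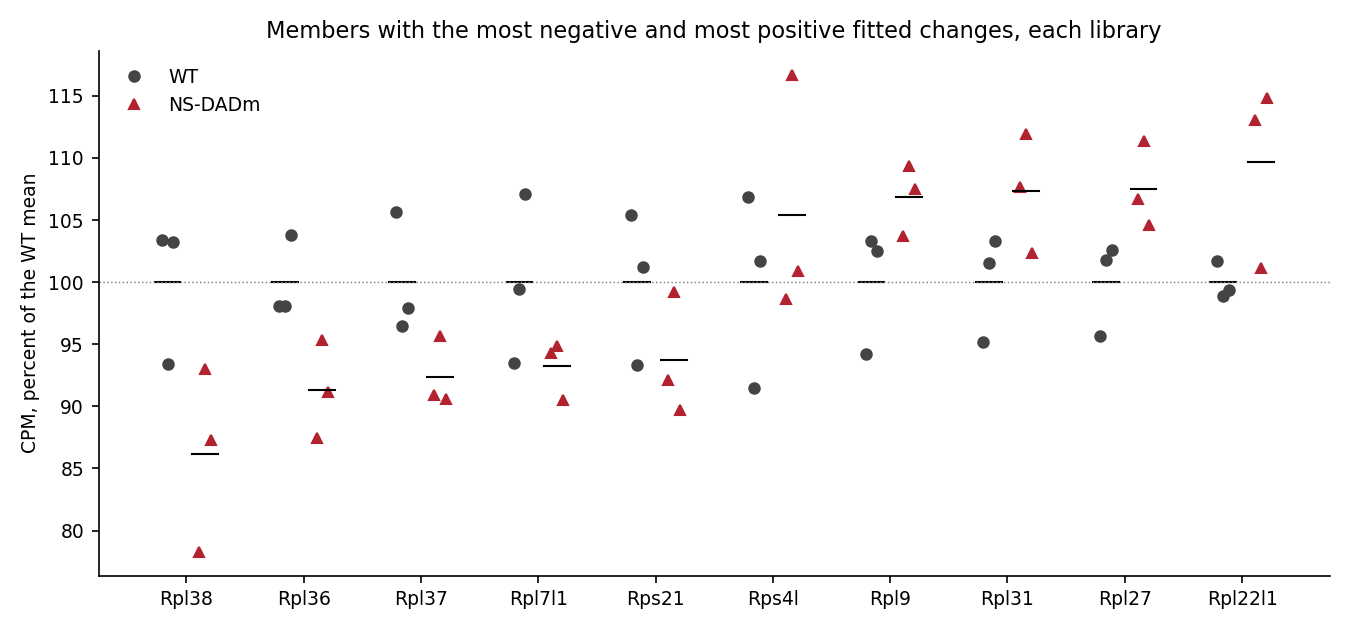
CPM in each library as a percent of the WT mean for 10 members at the ends of the fitted changes, with circles for WT, triangles for NS-DADm and short lines for group means. Rpl38 is the member whose NS-DADm mean is farthest below the WT mean, and for Rpl22l1 NS-DADm 2 lies within the WT range.

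The proteins of the stalk, the flexible arm of the large subunit that recruits elongation factors, showed how steady most members were. Rplp0, its base, measured 161, 161 and 163 CPM in the WT animals and 155, 171 and 160 CPM in the mutants. Rplp1 measured 259, 227 and 244 CPM in the WT animals and 244, 240 and 249 CPM in the mutants. Rplp2 measured 76.2, 72.8 and 75.4 CPM in the WT animals and 74.1, 74.6 and 77.6 CPM in the mutants. The groups overlapped for all 3, and the log2 fold changes were 0.0052, 0.0081 and 0.012, with 95% intervals of -0.10 to 0.11, -0.11 to 0.12 and -0.094 to 0.12. Rpsa, a small subunit protein also known as the laminin receptor precursor, measured 381, 400 and 405 CPM in the WT animals and 387, 422 and 388 CPM in the mutants, and its log2 fold change was 0.013 ± 0.050 SE. Rps6, the small subunit protein that S6 kinases phosphorylate downstream of mTOR, measured 343, 356 and 358 CPM in the WT animals and 356, 371 and 358 CPM in the mutants (log2 0.040 ± 0.045 SE).

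Some members varied more between animals of 1 group than between the groups; they were chosen after their values were seen. Rps14, a small subunit protein, had the largest SD within groups among the members with at least 10 CPM, 0.15 on the log2 scale. It measured 180, 148 and 147 CPM in the WT animals and 175, 158 and 148 CPM in the mutants, so that WT 1 and NS-DADm 1 stood above the others. Rpl13a measured 331, 301 and 267 CPM in the WT animals and 302, 303 and 293 CPM in the mutants, a WT range that encloses all NS-DADm values. The steadiest member was Rpl3, with an SD of 0.028 within groups. Across the 75 annotated members with at least 10 CPM, Spearman's rho of the fitted change was 0.035 with transcript length and 0.010 with GC content. Pearson's r with GC content was -0.11. The values of rho were larger, at 0.19 each, with mean log2 CPM and with the share of sequence found in other genes (defined below). These points share the same 6 libraries and are given as a description.

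Levels of different genes were compared per length, as CPM per 1000 bases of merged exons (RPKM). Rpl3, which lies near the peptidyl transferase centre, had the highest level with 547 ± 12 RPKM in the WT animals and 552 ± 9.1 RPKM in the mutants (SD, n = 3 each). It was followed by Rplp1 with 488 ± 31 and 490 ± 8.7 RPKM, and Rps6 with 401 ± 9.3 and 412 ± 9.3 RPKM. Rpl23a and Rpl4 came next with means over all libraries of 344 and 337 RPKM. The 6 libraries gave 536 to 561 RPKM for Rpl3, 455 to 518 for Rplp1, 390 to 423 for Rps6, 336 to 356 for Rpl23a and 321 to 348 for Rpl4. Each of the first 3 genes was therefore above the next in every library, while Rpl23a and Rpl4 overlapped. The order depends on the exon length used. With the length of 1 principal transcript, a setting chosen once the data were known, Rpl3 and Rplp1 kept ranks 1 and 2 and Rps6 had rank 5, Rpl23a rank 10 and Rpl4 rank 11. The part of counting and length in these unequal levels was not tested.

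At the low end were genes with hardly any counts. Rpl26 had 0 counts in all 6 libraries, where a level of up to 0.109 to 0.123 CPM (3 counts) would fit a count of 0. Rpl30 had 17, 11 and 12 counts in the WT animals and 10, 20 and 10 in the mutants, Rpl34 had 45, 47 and 26 and then 28, 33 and 27, and Rps27 had 27, 35 and 31 and then 39, 28 and 32. The groups overlapped for each of these 3. Rpl34 was the member with the most negative fitted change of those with at least 1 CPM (log2 -0.37 ± 0.24 SE; edgeR, adjusted p = 0.64) and Rps27 the one with the most positive (0.14 ± 0.23 SE; adjusted p = 0.89), both with wide errors. The value of Rpl34 was -0.23 without WT 2 and -0.58 without WT 3, and that of Rps27 was -0.040 without NS-DADm 1. All 4 genes encode standard proteins of the ribosome, and their values are given as a description of the count tables and not as mRNA levels. Alignments that were not unique, 14.3 to 16.5% of all counted entries, were not assigned to genes, and ribosomal protein genes have many processed pseudogenes.

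The overlap in sequence with other genes was measured as the share of 50-base words of 1 principal transcript that also occur, on either strand, in a GENCODE transcript of another gene. The median over the 83 annotated members was 60.0%, and 80 of them shared at least 1 word. Rps27 was the member with the highest share, 98.6%, all of it found in its retrogene Rps27rt, whose own row held 0 counts in every library. The shares were 76.4% for Rpl30, 71.3% for Rpl26 and 50.6% for Rpl34, values that lie within the range of members with at least 1000 counts. Rpl10 shared 92.1% and still had a mean of 312.5 RPKM, while Rpl8 shared 7.86% with 242 RPKM. Exons of another gene covered 55.0% of the Rpl30 exons and none of those of Rpl26, Rpl34 or Rps27. Across the 75 members with at least 10 CPM, level and shared sequence were weakly related (Spearman's rho 0.17), given as a description. Read length and the annotation used for counting are not given here, so the cause of the missing counts was not tested. Counts of members that share sequence are uncertain, since they may hold reads of copies or lack reads of their own. The 9 rows of ribosomal pseudogenes and retrogenes in the tables held 0 to 41 counts.

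**Figure D4:**
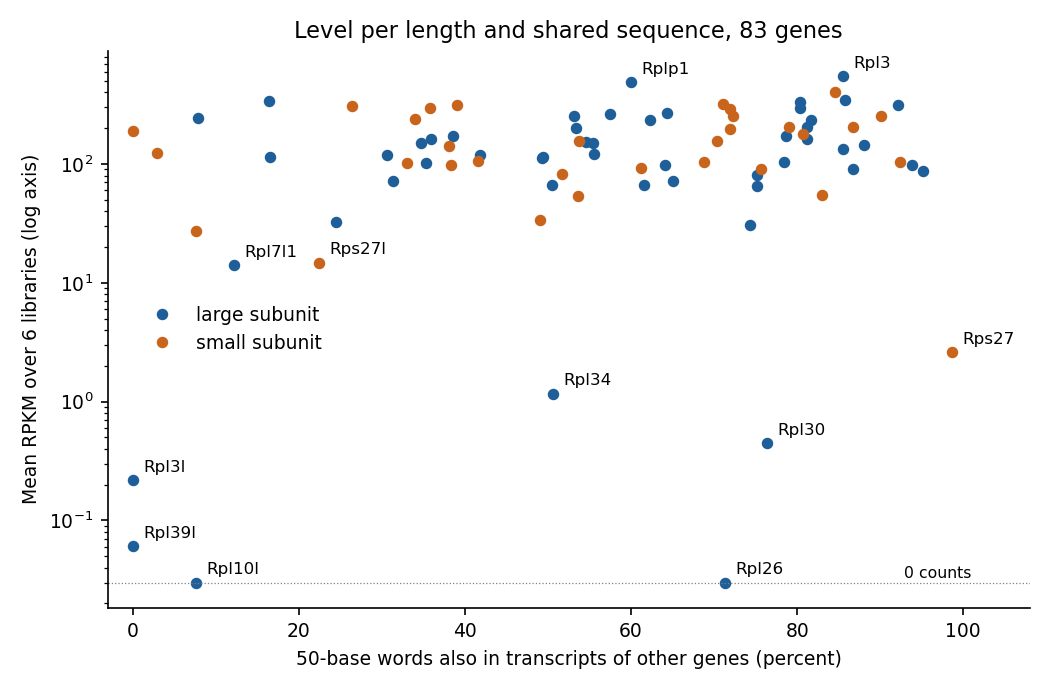
Mean RPKM over the 6 libraries (log axis; genes with 0 counts are drawn on the dotted line) against the percent of 50-base words shared with transcripts of other genes, for 83 members. Rpl26, Rpl30, Rpl34 and Rps27 fall far below the other standard members at shares of 50.6 to 98.6%, and Rpl3l, Rpl10l and Rpl39l are low at shares under 10%.

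Paralogs that replace a standard protein in certain tissues were nearly absent or lower. Rpl3l, which replaces Rpl3 in heart and skeletal muscle, had 12, 8 and 12 counts in the WT animals and 5, 9 and 10 in the mutants, or 0.25 and 0.19 RPKM on average, although none of its 50-base words were shared. The coding sequences of Rpl3 and Rpl3l were 74.2% identical. Rpl10l, a testis paralog of the X-linked Rpl10 with 84.7% identity, had 0 counts in every library, and Rpl10 measured 306 and 319 RPKM in WT and NS-DADm mice. Rpl39l, the testis paralog of Rpl39 with 85.0% identity, had 0, 4 and 0 counts in the WT animals and 2, 1 and 1 in the mutants. Rpl10l, Rpl39l and Rpl26 were the 3 members that did not pass the count filter.

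Other paralogs were expressed beside their partners. Rpl7 exceeded Rpl7l1 13.7-fold in the WT animals and 14.6-fold in the mutants (57.7% coding identity), a ratio of 5.71 and 6.10 with principal transcript lengths. Rplp1 exceeded Rplp2, its partner in the stalk, 6.86-fold and 6.84-fold, or 2.74-fold in both groups by transcript length. Rpl36a exceeded its intronless paralog Rpl36al, which lies outside the naming rule, 3.60-fold and 3.51-fold, or 1.40-fold and 1.37-fold by transcript length; their coding sequences were 87.7% identical. For Rpl22 and Rpl22l1 (69.3% identity) the order turned with the length used, from a ratio of 0.53 in the WT animals and 0.46 in the mutants to 2.14 and 1.87. On exon lengths this ratio was 0.54, 0.52 and 0.51 in the WT animals and 0.43, 0.52 and 0.43 in the mutants, and the groups overlapped at NS-DADm 2 and WT 2. Rps27l, an RNA-binding paralog of Rps27 known as a p53 target, had 7.79, 9.87 and 8.79 CPM in the WT animals and 7.24, 9.05 and 8.71 CPM in the mutants (log2 -0.078 ± 0.12 SE). No ratio of Rps27 to Rps27l is given, since Rps27 was barely counted. Rps4x, the X-linked member, measured 243, 252 and 248 CPM in the WT animals and 247, 256 and 247 CPM in the mutants.

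A few ribosomal components outside the naming rule were also measured. Fau, which fuses a ubiquitin-like protein to the small subunit protein S30, had a log2 fold change of -0.062. Gnb2l1, the scaffold RACK1 on the small subunit, had -0.028 and Rpl36al -0.013. None of these 3 was called.

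Genes that make, regulate or work with ribosomes were examined for comparison, in lists chosen with earlier results of these data known. None of the 7 further lists held a called gene, in a background of 0.654%. For the unadjusted counts given for each list, the share over all genes was 10.9%, with 6.46% lower. Of 36 tested initiation factors, 0 were called and 0 had an unadjusted p under 0.05 in the edgeR test (median log2 -0.019), and the smallest p belonged to Eif2b3, part of the exchange factor for eIF2, at a log2 fold change of 0.14. Eif1b and Eif1ax, which act in start codon selection, had 0.096 and -0.11. Of 17 elongation and termination factors, 0 were called and 2 had an unadjusted p under 0.05 (edgeR, median log2 -0.027). These were Btf3, part of the nascent chain-associated complex (log2 0.12, with 112, 113 and 113 CPM in the WT animals and 128, 121 and 120 CPM in the mutants), and Eef1a2, the neuronal and muscle form of the elongation factor that brings tRNA (log2 -0.11). Eef2k, the kinase that inhibits elongation factor 2, had a log2 fold change of 0.098.

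Among 20 genes of the mTOR pathway and regulators of TOP mRNAs, 0 were called and 1 had an unadjusted p under 0.05 (edgeR, median log2 0.00040). This was Deptor, an mTOR inhibitor, with 52.5, 55.4 and 62.3 CPM in the WT animals and 51.3, 50.03 and 45.5 CPM in the mutants (log2 -0.21 ± 0.071 SE; edgeR, adjusted p = 0.27). The WT values lay above the NS-DADm values without overlap. Tia1, an RNA-binding protein of stress granules, had 0.086 and Rps6kb2, an S6 kinase, 0.14. Of 47 ribosome biogenesis factors, 0 were called and 3 had an unadjusted p under 0.05, all higher (edgeR, median log2 0.0055). Over all genes this share was 10.9% in either direction, which includes 6.46% lower. Whether the list as a whole changed was not tested. Mdn1, the giant ATPase that remodels large subunit precursors, measured 196, 202 and 198 CPM in the WT animals and 226, 225 and 230 CPM in the mutants. Its groups were far apart relative to their spread, and the log2 fold change was 0.19 ± 0.043 SE (edgeR, adjusted p = 0.068), short of the threshold. Nop56, of the box C/D particles that modify ribosomal RNA, had 0.11 and Nle1, which works with Mdn1, 0.18.

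Of 24 RNA polymerase I and related genes, 0 were called and 1 had an unadjusted p under 0.05 (edgeR, median log2 0.0094). Mycn, a transcription factor that drives ribosome genes, measured 5.19, 4.35 and 5.83 CPM in the WT animals and 3.81, 2.86 and 3.92 CPM in the mutants, without overlap (log2 -0.54 ± 0.16 SE; edgeR, adjusted p = 0.18). Its relative Myc had 0.23 and Polr2l, a subunit shared by the RNA polymerases, -0.14. Mitochondrial ribosomal proteins, which build the separate ribosome of mitochondria, numbered 78 tested genes, of which 0 were called and 1 (1.28%) had an unadjusted p under 0.05, with a median log2 of -0.019. That gene was Mrpl49, with a log2 fold change of -0.18 ± 0.066 SE (edgeR, adjusted p = 0.34). Mrpl34 and Mrpl51 of the large subunit had -0.21 and -0.11, and Mrps36, Mrps10 and Mrps23 of the small subunit -0.18, 0.13 and 0.11.

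**Figure D5:**
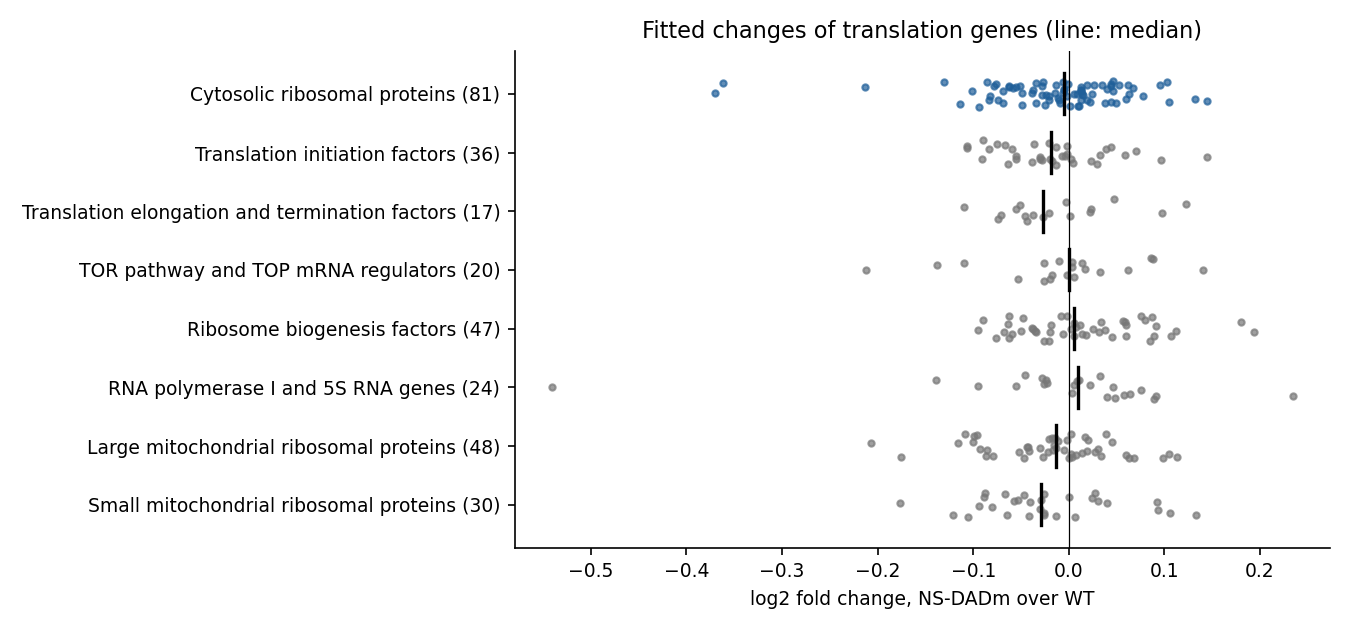
Fitted log2 fold change of NS-DADm over WT for each tested gene of the cytosolic ribosomal proteins and 7 lists of translation genes, with the number tested in parentheses and the median as a line. All medians lie between -0.030 and 0.0094; none of the genes shown was called, and the farthest point is Mycn at -0.54.

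In a fit that also held the thalamus marker level, the members' median log2 fold change was -0.055, against 0.0030 for all genes, with 0 members called and 9 at an unadjusted p under 0.05 in the edgeR test (11.1%, against 10.7% of all genes). The thalamus markers were known to be lower in the mutants when they were listed, and their summed level did not overlap between the groups. This fit therefore separates marker level and genotype poorly.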

How the data were processed

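The deposited files hold whole-number read counts by gene symbol, not normalized, for each library. The authors aligned reads with TopHat2 2.0.9 to mm10 and counted with HTSeq, per the submitters' processing notes; the HTSeq version, annotation, strand setting and read length are not given in these sources. Reads from overlapping or antisense genes therefore cannot be told apart. The 5 summary rows of reads without a gene were removed first; reads outside genes made up 13.3 to 14.8% of entries, ambiguous ones 1.00 to 1.06% and multiply aligned reads 14.3 to 16.5%.

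Counts were filtered (filterByExpr), scaled by TMM (factors 0.992 to 1.01) and tested over all 15894 remaining genes in R 4.3.3 by edgeR 4.0.16 (quasi-likelihood, robust), without covariates, and p-values were adjusted over all of them by the Benjamini-Hochberg method. SEs were derived from each fold change and its F value, and 95% intervals from the SE and the test's degrees of freedom. CPM used the scaled library sizes; RPKM divided CPM by merged exons of protein-coding transcripts in GENCODE M21 (mm10). Alternatives used DESeq2 1.42.0, limma 3.58.1 and the settings named at the end. The fit was also run on simulated data, and no result given here rests on that run. The members and lists were chosen with earlier results of these data known. Named members were the 6 with the most negative and the 6 with the most positive fitted change at a mean of at least 1 CPM, the 5 highest and 5 lowest in RPKM, the stalk genes and Rpsa, paralog pairs and untested members; from each list, up to 3 genes with the smallest p. One gene that this rule names is not reported here.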

Additional observations from a re-analysis of the deposited data

How the results depend on the processing

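In each of the 16 alternatives 0 ribosomal protein genes were called. The members' median log2 fold change stayed between -0.031 and 0.0077, except with the thalamus marker covariate (-0.055). The number of all genes called moved from 104 to 203 with no count filter, 282 with DESeq2, 409 with the replicate block and 16 with the covariate, and ranged from 5 to 312 with a library left out (312, 262 and 10 on leaving out WT 1, 2 and 3, and 5 and 8 on leaving out NS-DADm 2 and 3). The labels do not say whether libraries with the same replicate number were handled together. Deviations from the group means correlated at 0.12, 0.081 and -0.038 between libraries numbered 1, 2 and 3 in both groups. For libraries with different numbers the correlations were -0.12 to 0.050, and WT 3 correlated best with NS-DADm 2. Whether the replicate numbers mark pairs was not tested. Under the replicate block the smallest adjusted p of a member was 0.14 (edgeR, Rpl38). Over all alternatives it was 0.12 to 0.58 for the member with the smallest. Members at an unadjusted p under 0.05 numbered 2 in the reported fit, 5 with the replicate block, 6 with library totals, 3 with upper quartile factors, 1 with DESeq2 and 9 with the covariate, and 1 to 8 with a library left out. The members' share of reads differed between groups by less than its spread under each of its alternatives. Of 460 recomputed values of 29 named members, 42 changed sign, none of them called. With the covariate these were Rpl37 (0.010), Rps21 (0.056), Rps27 (-0.036), Rpl27 (-0.064), Rpl31 (-0.081), Rpl9 (-0.11), Rplp0 (-0.081), Rpsa (-0.16), Rpl3 (-0.093), Rps6 (-0.068), Rpl23a (0.067), Rpl4 (-0.16), Rpl3l (0.34), Rpl10 (-0.059), Rps4x (-0.097) and Rpl36a (0.051). Values that kept their sign under the covariate but moved by over 1.5 times were Rps27l (-0.64), Rpl34 (-0.58), Rpl7 (-0.25), Rpl7l1 (-0.24), Rpl38 (-0.12), Rpl22 (-0.0042), Rpl22l1 (0.30), Rplp1 (0.28), Rpl30 (0.26), Rps4l (0.22) and Rplp2 (0.12). With no filter the changes of sign were Rplp0 (-0.0011) and Rpl4 (-0.0045), and Rpl7 had 0.0071 with upper quartile factors and 0.0081 with library totals. With a library left out, values ranged from -0.030 to 0.036 for Rpsa, -0.030 to 0.026 for Rpl4, -0.039 to 0.057 for Rplp1, -0.0086 to 0.029 for Rplp2, -0.32 to 0.25 for Rpl30, -0.050 to 0.025 for Rpl7, -0.16 to 0.013 for Rps27l, -0.040 to 0.29 for Rps27, -0.0029 to 0.13 for Rps4l, -0.036 to 0.038 for Rplp0 and -0.0052 to 0.026 for Rps4x. The cause of these moves was not tested. For the 7 members under 50 counts in every library, counting error limits what could be seen; why they had so few counts was not tested.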
